A study of Mus musculus with 12 samples.

Results

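The transcripts described here are 9 mouse genes often used as markers of classical monocytes: the surface protein gene Ly6c2, the small cysteine-rich protein gene Plac8, the coagulation factor gene F13a1, the proteoglycan gene Vcan, the calcium-binding protein genes S100a4 and S100a6, the lysozyme genes Lyz1 and Lyz2, and the haptoglobin gene Hp. They were taken by symbol from the deposited gene counts, where they are 9 of 26608 gene rows, and all 9 were among the 14254 genes with enough counts to be tested. The libraries came from sorted lung cells of C57Bl/6 mice, all of which had spent 3 weeks in hypoxia with a weekly dose of SU5416, an inhibitor of VEGF receptors. Each library was made from about 250 cells, either interstitial macrophages (IM), the macrophages of lung tissue outside the airspaces, or nonclassical monocytes (NCM), the monocytes that patrol vessel walls. There were 3 libraries in each of 4 groups. IM deleted and NCM deleted came from mice whose labels give Hif1a as deleted by a Cre under Cx3cr1, a chemokine receptor gene of monocytes and macrophages. IM control and NCM control came from mice with floxed Hif1a and no Cre. HIF-1, a transcription factor of the response to low oxygen, takes its oxygen-sensitive subunit from Hif1a. Only deleted animals carried Cre, so the deletion and the presence of Cre cannot be told apart. None of the 12 libraries was labelled as classical monocytes or as from untreated or normoxic mice.

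Classical monocytes leave the bone marrow, circulate and enter tissues, where they can become macrophages; in mice they also give rise to nonclassical monocytes. On the way to the nonclassical state Ly6C is lost from the surface, and on the way to a macrophage many monocyte transcripts fade while others, among them lysozyme and factor XIII, can be kept or gained. The 9 genes have different known roles: Lyz1 and Lyz2 encode enzymes that cleave bacterial cell walls, F13a1 the catalytic subunit of a clot-stabilizing transglutaminase, Vcan a large matrix proteoglycan, Hp a scavenger of free haemoglobin, and Ly6c2 one of the antigens seen by Ly6C antibodies.

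Lyz1, Lyz2 and Ly6c2 have near-identical copies, which matters for how far their counts can be separated, so the start of each coding sequence is shown beside its copy. Lyz1 (chr10:117287795-117292868, minus strand) and Lyz2 (chr10:117277541-117282272, minus strand) lie 5522 bases apart, and 422 of their 444 coding bases are identical. Ly6c2 (chr15:75108161-75112066, minus strand) and Ly6c1, which is not a member, share 384 of 393 coding bases (97.7%). Gene positions are those of RefSeq on GRCm38.p6 and the sequences are from GENCODE M21 transcripts. Each stretch is the first 150 coding bases, and capitals mark the bases that differ from the copy, 14 in the lysozyme pair and 6 in the Ly6c pair.
Lyz1: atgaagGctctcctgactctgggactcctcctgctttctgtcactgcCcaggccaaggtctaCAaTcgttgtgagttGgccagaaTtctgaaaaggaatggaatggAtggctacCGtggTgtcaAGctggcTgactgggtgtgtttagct
Lyz2: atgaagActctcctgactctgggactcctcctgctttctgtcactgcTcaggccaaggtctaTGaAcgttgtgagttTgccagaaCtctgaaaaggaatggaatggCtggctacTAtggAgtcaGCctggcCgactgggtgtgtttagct
Ly6c2: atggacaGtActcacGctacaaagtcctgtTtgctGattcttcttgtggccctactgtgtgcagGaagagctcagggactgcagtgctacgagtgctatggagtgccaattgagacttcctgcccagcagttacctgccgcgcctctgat
Ly6c1: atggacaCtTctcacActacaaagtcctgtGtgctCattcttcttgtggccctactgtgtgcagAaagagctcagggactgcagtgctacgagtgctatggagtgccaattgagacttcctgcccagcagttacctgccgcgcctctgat
Of all stretches of 50 bases in the Lyz1 transcript, 16.1% also occur in the Lyz2 transcript, against 2.06% of stretches of 100 bases. For Ly6c2 and Ly6c1 the shares are 32.6% and 15.8%. How reads from shared stretches were assigned is not given in the sources used here, so the counts of Lyz1 and Ly6c2 are uncertain by the reads of their copies. Ly6c1 had 832 counts in IM659, 232 in IM660 and 176 in NCM648, where Ly6c2 had 0, so no reads of the copy were counted as Ly6c2 there. Whether Ly6c2 lost reads of shared stretches cannot be seen from the counts.

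Levels are CPM, the counts of a gene scaled to a common library total, on library sizes scaled with TMM factors, and changes are log2 fold changes with their standard error (SE) from edgeR's quasi-likelihood fit over all 12 libraries, with p-values adjusted by Benjamini-Hochberg over 14254 genes. A gene rose or fell where its adjusted p was under 0.05. Gene counts per library were between 5332600 and 14099509. Reads called non-exonic here are those of the summary row for reads assigned to no gene feature. The annotation and the use of strand are not given, so not all of them need lie outside exons. Non-exonic reads made up 59.2 to 69.8% of gene counts plus non-exonic reads in IM deleted libraries, against 38.5 to 44.2% in IM control libraries (exact permutation test, two-sided p = 0.1, the smallest that 3 against 3 libraries allow), and 55.1 to 72.7% in NCM deleted against 58.1 to 66.8% in NCM control libraries. Counts over the whole gene cannot check a deletion of some exons: Hif1a averaged 199 ± 6.50 CPM in IM deleted and 228 ± 15.6 CPM in IM control libraries (adjusted p = 0.938), and 172 ± 34.8 CPM in NCM deleted and 225 ± 19.6 CPM in NCM control libraries (adjusted p = 0.407; SD, n = 3 each). Cx3cr1 averaged 199 ± 85.4 CPM in IM deleted and 392 ± 66.2 CPM in IM control libraries, and 123 ± 75.7 CPM in NCM deleted and 219 ± 72.7 CPM in NCM control libraries; neither difference passed (adjusted p = 0.448 and 0.356). Of 19 interstitial macrophage markers, 14 were higher in IM than in NCM in either genotype. Of 19 nonclassical monocyte markers, 14 were lower in IM control than in NCM control and 12 lower in IM deleted than in NCM deleted. In these comparisons 4 and 5 of the 19 lay above 0. Most markers of each list thus went with the labels, but the lists were chosen with earlier results of these data known. Endothelial markers summed to 4943 to 11910 CPM in NCM deleted libraries, against 5465 to 10318 CPM for nonclassical markers. In NCM control libraries the sums were 994 to 3795 CPM and 11698 to 18844 CPM. IM libraries were run on lanes 5 and 7 and NCM libraries on lanes 6 and 8, so lane and cell type cannot be told apart. Changes within a lane are deleted minus control in mean log2 of CPM plus 0.5, and are not values of the fit. Libraries are named by cell type and label number, and the labels do not say that numbers are separate animals, so p-values measure the spread between these libraries, which may be technical.

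The 9 transcripts did not behave as one set. Lyz1, Lyz2 and F13a1 were macrophage-weighted, with their highest group means in IM, Plac8 was monocyte-weighted, with nearly all of its signal in NCM, and Ly6c2 had few counts in most libraries. Per kilobase of exon, Lyz2 was the most abundant member in every group, with 3504 CPM per kb in IM deleted, 6624 in IM control, 1487 in NCM deleted and 2648 in NCM control libraries. On the same scale the lowest member in IM was Ly6c2, with 0.278 CPM per kb in IM deleted and 0.151 in IM control libraries. The lowest mean in NCM belonged to Vcan in NCM deleted libraries, with 1.84 CPM per kb, and to Ly6c2 in NCM control libraries, with 1.13, where Vcan had 1.19. All 9 together took 0.344 to 0.756% of gene counts in IM deleted, 0.919 to 1.01% in IM control, 0.132 to 0.304% in NCM deleted and 0.307 to 0.478% in NCM control libraries. Lyz2 made up most of these shares.

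**Figure D1:**
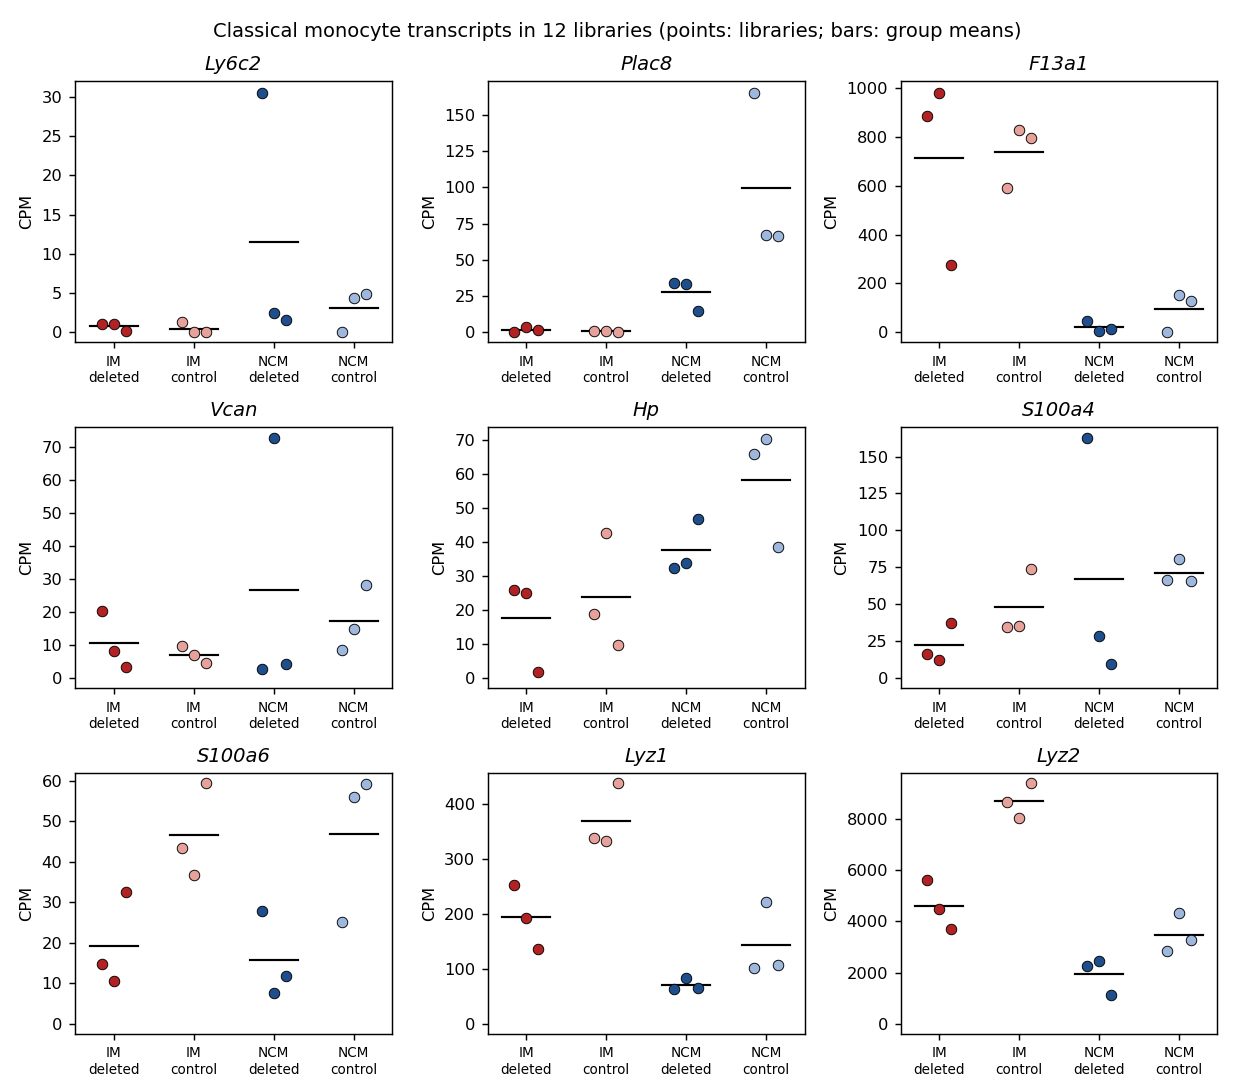
Level of each of the 9 transcripts in CPM (vertical axis, linear, own scale per panel) in the 12 libraries; points are libraries and bars are group means of 3. Lyz1, Lyz2 and F13a1 are highest in IM and Plac8 in NCM, while single NCM deleted libraries carry the highest values of Ly6c2 (30.5 CPM), Vcan (72.7 CPM) and S100a4 (163 CPM).

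Lyz2, the lysozyme gene of mouse macrophages and monocytes, was higher in IM than in NCM in both genotypes. It stood at 5620, 4489 and 3725 CPM in IM649, IM650 and IM661 of the deleted group, and at 8688, 8051 and 9412 CPM in IM648, IM659 and IM660 of the control group. In NCM it stood at 2269, 2464 and 1138 CPM in the deleted libraries NCM649, NCM650 and NCM661, and at 2845, 4347 and 3262 CPM in the control libraries NCM648, NCM657 and NCM659. The IM control group thus had the highest mean, followed by IM deleted, then NCM control, then NCM deleted, and the only neighbours in that order whose libraries overlapped were IM deleted and NCM control.

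Lyz1 is the lysozyme gene best known from Paneth cells of the mouse intestine, and it followed the same order at a lower level. It had 252, 192 and 135 CPM in the IM deleted libraries, and 337, 333 and 438 CPM in the IM control libraries. It had 62.5, 84.0 and 65.4 CPM in the NCM deleted libraries, and 102, 221 and 106 CPM in the NCM control libraries. Every IM control library again lay above every other library, and every NCM deleted library below every other library.

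Between the cell types both lysozymes passed the test. In IM deleted against NCM deleted, Lyz2 was 2.36-fold higher (log2 1.24 ± 0.29 SE, adjusted p = 0.0190) and Lyz1 2.74-fold higher (log2 1.45 ± 0.32, adjusted p = 0.0153). In IM control against NCM control, Lyz2 was 2.50-fold higher (log2 1.32 ± 0.29, adjusted p = 0.00984) and Lyz1 2.59-fold higher (log2 1.37 ± 0.32, adjusted p = 0.0158). Leaving out 1 library lost some of these calls, while the log2 changes stayed between 0.96 and 1.83. In the deleted comparison the adjusted p of Lyz1 was 0.0926 without IM649 and 0.0560 without NCM649. That of Lyz2 was 0.104 without IM649, 0.0507 without IM661 and 0.0540 without IM659. Of these, IM659 is in neither deleted group but enters the shared estimate of spread. In the control comparison that of Lyz1 was 0.0731 without IM660, 0.0944 without NCM648 and 0.0731 without NCM659, and that of Lyz2 was 0.0622 without NCM648. With the non-exonic share as a covariate, Lyz1 no longer passed in the control comparison (adjusted p = 0.426), and with only the 2 groups of the deleted comparison in the fit, neither lysozyme passed there (adjusted p = 0.0905 for Lyz1 and 0.211 for Lyz2).

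Between the genotypes both lysozymes were lower in deleted libraries of both cell types with no overlap, but none of these differences passed the adjusted test. In IM the log2 change was -0.92 ± 0.28 for Lyz2 (adjusted p = 0.214 by edgeR's quasi-likelihood test) and -0.93 ± 0.32 for Lyz1 (adjusted p = 0.279). In NCM it was -0.83 ± 0.28 for Lyz2 (adjusted p = 0.156) and -1.02 ± 0.32 for Lyz1 (adjusted p = 0.134). The sign held within each lane, where deleted minus control was -0.96 and -0.93 for Lyz2 and -0.99 and -0.87 for Lyz1 in lanes 5 and 7, and -0.61 and -0.82 for Lyz2 and -0.86 and -0.67 for Lyz1 in lanes 6 and 8, with 1 to 2 libraries per genotype in a lane. In IM the non-exonic share also separated the groups, and with it as a covariate the changes there were -1.91 for Lyz2 (adjusted p = 0.268) and -1.25 for Lyz1 (adjusted p = 0.478). Marker lists differed in the same direction: interstitial macrophage markers summed to 14466 to 19422 CPM in IM deleted and 24358 to 27571 CPM in IM control libraries, and nonclassical markers to 3289 to 4121 CPM in IM deleted and 4985 to 5311 CPM in IM control libraries, both without overlap. Of 19 markers in each list, 15 and 16 lay below 0, and no marker was at 0 in every library of either group. The part of these markers in the lysozyme values was not tested. In a fit with only the IM libraries both lysozymes passed, with adjusted p = 0.0332 for Lyz1 and 0.0146 for Lyz2. That fit called 549 genes higher and 401 lower of 13566, against 34 and 7 of 14254 in the main fit. Lyz2 also passed in IM without NCM661, which is in neither group but enters the shared estimate of spread (adjusted p = 0.0219), and in NCM with the non-exonic share as a covariate (log2 -1.13, adjusted p = 0.0304). Over all genes, 152 were higher and 82 lower of 14841 in the first of these fits. In the second, 80 were higher and 271 lower of 14254, against 12 and 48 in the main fit. The sizes of the deletion effect in IM and NCM differed by -0.09 for Lyz2 (adjusted p = 0.981) and by 0.08 for Lyz1 (adjusted p = 0.986), and the Lyz1 value was -0.076 with RLE size factors.

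The group means of the ratio within the pair lay close together. Lyz1 made up 3.97 ± 0.412% of the counts of both genes in IM deleted and 4.05 ± 0.362% in IM control libraries, and 3.80 ± 1.44% in NCM deleted and 3.81 ± 0.894% in NCM control libraries (SD, n = 3 each). The spread was wider in NCM, where the share was 2.68% in NCM649 (exact 95% interval 2.42 to 2.96%) and 5.43% in NCM661 (5.06 to 5.83%). These intervals cover counting error only. Deviations of the pair from their group means correlated at r = 0.65 over the 12 libraries. Both counts of a pair come from the same library and depth, and the genes share stretches of sequence.

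**Figure D2:**
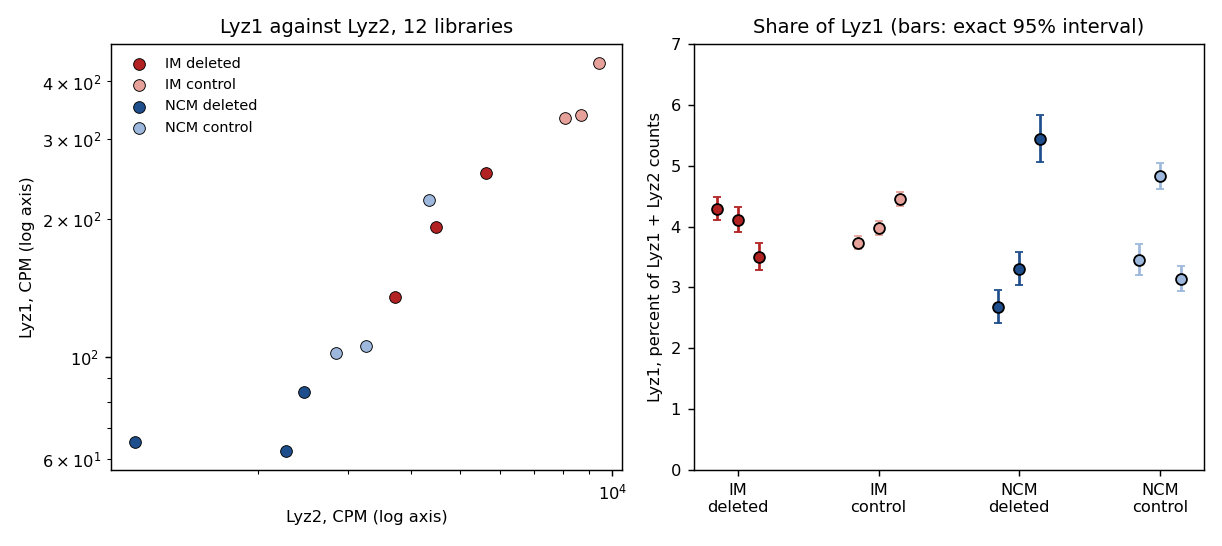
Left, Lyz1 against Lyz2 in CPM on log axes, 1 point per library; right, Lyz1 as a percentage of Lyz1 plus Lyz2 counts per library, with exact 95% intervals for counting error. IM deleted libraries lie between IM control and most NCM libraries on the left, and on the right the group means all lie between 3.80 and 4.05%.

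The sequences just before the starts of the lysozyme genes are shown because these neighbours had the same order of group means. Each window holds the 250 bases before the RefSeq start on GRCm38.p6, chr10:117292869-117293118 for Lyz1 and chr10:117282273-117282522 for Lyz2, both on the minus strand and printed 5′ to 3′. Capitals mark a match to TTGCNNAA, a consensus of C/EBP factors, on either strand.
Lyz1: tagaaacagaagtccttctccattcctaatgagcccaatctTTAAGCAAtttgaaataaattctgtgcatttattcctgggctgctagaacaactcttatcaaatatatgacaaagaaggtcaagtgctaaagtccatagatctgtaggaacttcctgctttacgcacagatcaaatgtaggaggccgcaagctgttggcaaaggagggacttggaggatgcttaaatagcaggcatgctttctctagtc
Lyz2: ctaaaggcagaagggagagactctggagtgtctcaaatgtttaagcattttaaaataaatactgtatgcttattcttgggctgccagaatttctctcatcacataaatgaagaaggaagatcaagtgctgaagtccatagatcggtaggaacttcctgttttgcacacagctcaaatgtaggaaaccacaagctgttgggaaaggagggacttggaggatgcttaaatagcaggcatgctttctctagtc
The last 50 bases before the start were identical in the pair. The Lyz1 window held 1 match and the Lyz2 window none, and 10.8% of 32851 promoter windows of 300 bases held at least 1.

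Plac8 (chr5:100551589-100572253, minus strand), which encodes a small cysteine-rich protein of myeloid and plasmacytoid cells, was the member most unequal between the cell types in control libraries, while F13a1 was in deleted libraries. It had 0, 3.29 and 1.35 CPM in the IM deleted libraries, and 0.730, 1.03 and 0.240 CPM in the IM control libraries. It had 33.8, 33.5 and 14.9 CPM in the NCM deleted libraries, and 165, 67.3 and 66.5 CPM in the NCM control libraries. Every NCM library lay above every IM library, and every NCM control library above every NCM deleted library.

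Plac8 was 17.6-fold lower in IM deleted than in NCM deleted (log2 -4.14 ± 0.91, adjusted p = 0.0136 by edgeR's quasi-likelihood test) and 146-fold lower in IM control than in NCM control libraries (log2 -7.19 ± 1.03, adjusted p = 0.000657). The IM values rest on few reads, so the fold depends on them: in the deleted comparison the log2 change was -5.34 without IM650 and -3.55 without IM649, and the adjusted p was 0.0621 without IM661. Neither call held in every fit, with adjusted p = 0.189 in the deleted comparison with only its own groups and 0.164 in the control comparison with the non-exonic share as a covariate (log2 -5.61).

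Between the genotypes the Plac8 change was -1.86 ± 0.80 in NCM (adjusted p = 0.263, no overlap) and 1.18 ± 0.89 in IM (adjusted p = 0.823, overlapping). Within lanes the NCM difference was -0.99 in lane 6 and -2.85 in lane 8, and the IM difference 1.83 in lane 5 and -0.35 in lane 7. The IM and NCM effects differed by 3.04 ± 1.19 on the log2 scale, which did not pass (adjusted p = 0.509).

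The window of 250 bases before the first Plac8 start, chr5:100572206-100572455 on the minus strand, is shown with its matches to GAGGAA, the core of sites for the myeloid factor PU.1, in capitals. The corresponding window of F13a1, chr13:37050245-37050494 on the minus strand, is shown beside it because these are the members with the largest differences between the cell types, in opposite directions.
Plac8: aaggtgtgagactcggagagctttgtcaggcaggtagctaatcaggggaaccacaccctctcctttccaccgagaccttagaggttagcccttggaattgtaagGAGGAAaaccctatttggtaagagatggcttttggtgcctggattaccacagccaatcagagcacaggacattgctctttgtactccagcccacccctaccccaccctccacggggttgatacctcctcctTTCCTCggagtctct
F13a1: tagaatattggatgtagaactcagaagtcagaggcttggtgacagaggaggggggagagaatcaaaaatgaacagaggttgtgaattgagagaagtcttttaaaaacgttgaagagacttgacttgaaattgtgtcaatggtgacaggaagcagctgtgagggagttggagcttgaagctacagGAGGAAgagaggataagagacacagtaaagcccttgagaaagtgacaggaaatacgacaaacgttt
GAGGAA on either strand was in 6 of 11 windows of the 8 members with a RefSeq promoter, against 28.3% of all windows of 300 bases. They belonged to 4 of the 8 members, S100a4, Plac8, F13a1 and Ly6c2. ACGTG, the core of the hypoxia response element bound by HIF-1, was in 2 of the 11 windows, against 19.6% of all windows. These were of S100a6 and a second Plac8 start. TTGCNNAA was also in 2 of the 11 windows, of Lyz1 and the second Plac8 start, against 10.8% of all windows.

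F13a1 (chr13:36867178-37050244, minus strand) showed the opposite pattern to Plac8 and was abundant in macrophages of both genotypes. It had 886, 981 and 277 CPM in the IM deleted libraries, and 590.1, 831 and 798 CPM in the IM control libraries. It had 46.7, 6.17 and 13.3 CPM in the NCM deleted libraries, and 2.21, 153 and 127 CPM in the NCM control libraries. All IM libraries lay above all NCM libraries, while within NCM the control group held both the lowest library and the highest.

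In IM deleted against NCM deleted, F13a1 was 32.6-fold higher (log2 5.03 ± 1.15, adjusted p = 0.0246 by edgeR's quasi-likelihood test). The call was lost without any 1 of 8 libraries: adjusted p was 0.0648, 0.0632 and 0.0755 without IM648, IM659 and IM660, 0.100, 0.0954 and 0.0541 without IM649, IM650 and IM661, and 0.112 and 0.0802 without NCM650 and NCM661. Without NCM649 the log2 change was 6.17. It was also lost with no filter on low counts (adjusted p = 0.139) and with the non-exonic share as a covariate (adjusted p = 0.0502). In IM control against NCM control the change was 2.97 ± 1.04 with no overlap and did not pass (adjusted p = 0.114).

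Between the genotypes the log2 change of F13a1 was -0.05 ± 0.96 in IM (adjusted p of about 1.0) and -2.11 ± 1.02 in NCM (adjusted p = 0.334). The NCM difference turned with the lane, at -4.39 in lane 6 and 3.23 in lane 8, and the IM difference was 0.27 in lane 5 and -0.25 in lane 7. Interstitial macrophage markers went with F13a1 only at the top of the NCM range. Their summed level was highest in NCM657 (4934 CPM) and NCM659 (4244 CPM), as was F13a1. NCM648, with the lowest F13a1, came next at 2189 CPM, although 4 of 19 markers were at 0 there. The remaining sums were 1962 CPM in NCM650, 1871 CPM in NCM649 and 1745 CPM in NCM661, an order that F13a1 did not follow. F13a1 is also a platelet gene. Of 9 platelet and erythroid markers the summed level was 160 to 232 CPM in IM deleted, 195 to 304 CPM in IM control, 1.32 to 28.9 CPM in NCM deleted and 6.79 to 71.1 CPM in NCM control libraries. In IM most of it was Pf4, which is in both marker lists. Another platelet gene of that list, Ppbp, averaged 6.08 ± 3.00 CPM in IM deleted, 13.4 ± 7.28 CPM in IM control, 1.04 ± 1.79 CPM in NCM deleted and 4.29 ± 6.01 CPM in NCM control libraries (SD, n = 3 each). The part of these markers in the F13a1 values was not tested, and in pools of cells fewer cells of a type and less RNA per cell cannot be told apart.

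Ly6c2, the member by which classical monocytes are usually sorted, was barely detected in IM and in most NCM libraries. Its counts were 9, 8 and 1 in the IM deleted libraries and 17, 0 and 0 in the IM control libraries, or 1.10, 1.05 and 0.135 CPM against 1.24, 0 and 0 CPM. In NCM its counts were 185, 17 and 18 in the deleted libraries and 0, 36 and 40 in the control libraries, or 30.5, 2.50 and 1.60 CPM against 0, 4.40 and 4.85 CPM. A count of 0 allows up to 3 counts, which is 0.221 CPM in IM659, 0.240 CPM in IM660 and 0.443 CPM in NCM648.

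NCM649 thus held the highest Ly6c2 level, above all other libraries. Of other classical monocyte genes, Ccr2, the chemokine receptor by which these cells leave the marrow, had 1 count in that library, or 0.165 CPM. S100a9, a gene of neutrophils and classical monocytes, had 22.3 CPM there and 12.4 CPM in NCM657, against at most 0.658 CPM in the other 10 libraries. Its partner S100a8 was at 0 in NCM649 and at 4.77 CPM in NCM657, and 7 of 13 neutrophil markers were at 0 in NCM649, where Csf3r, a cytokine receptor gene, gave 101 of the summed 158 CPM. Stfa2 and Ly6g were at 0 in every group, and the neutrophil markers summed to 83.4 to 131 CPM in IM deleted, 114 to 150 CPM in IM control, 71.8 to 158 CPM in NCM deleted and 109 to 139 CPM in NCM control libraries. The part of other cells in the Ly6c2 value of NCM649 was not tested.

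No Ly6c2 comparison passed. Between the genotypes the change was 0.86 ± 1.87 in IM (adjusted p = 0.999) and 1.89 ± 1.87 in NCM (adjusted p = 0.665), and each depended on 1 library, at 5.77 in IM without IM648 and -0.59 in NCM without NCM649. Within lanes it was 1.63 and -0.79 in IM and -0.77 and 4.01 in NCM (lanes 5, 7, 6 and 8). Between the cell types it was -3.89 ± 2.04 in the deleted groups, where the libraries did not overlap (adjusted p = 0.397), and -2.86 ± 1.95 in the control groups (adjusted p = 0.486).

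Vcan (chr13:89655309-89743027, minus strand), which encodes versican, was low throughout. It had 20.3, 8.16 and 3.25 CPM in the IM deleted libraries, and 9.78, 7.08 and 4.40 CPM in the IM control libraries. It had 2.80, 72.7 and 4.17 CPM in the NCM deleted libraries, and 8.56, 14.9 and 28.3 CPM in the NCM control libraries. The groups overlapped in every comparison, and NCM650 stood alone at the top. The change between genotypes was 0.58 ± 1.05 in IM (adjusted p = 0.991) and 0.62 ± 1.04 in NCM (adjusted p = 0.821), and the NCM value was -2.30 without NCM650. Within lanes it was 0.51 and -0.22 in IM and 1.80 and -1.20 in NCM. Between the cell types it was -1.33 in deleted (adjusted p = 0.636) and -1.28 ± 1.06 in control libraries (adjusted p = 0.598).

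Hp (chr8:109575128-109579172, minus strand), the haemoglobin scavenger, had its higher levels in NCM. It had 25.8, 25.1 and 1.62 CPM in the IM deleted libraries, and 18.9, 42.7 and 9.59 CPM in the IM control libraries. It had 32.3, 33.8 and 46.8 CPM in the NCM deleted libraries, and 65.8, 70.5 and 38.6 CPM in the NCM control libraries. Only the deleted groups of the 2 cell types were without overlap. The change between cell types was -1.10 ± 0.73 in deleted (adjusted p = 0.538) and -1.30 ± 0.73 in control libraries (adjusted p = 0.364). The change between genotypes was -0.44 ± 0.72 in IM (adjusted p = 0.987) and -0.63 ± 0.72 in NCM (adjusted p = 0.718). Within lanes it was -0.62 and -0.75 in NCM, and 0.30 in lane 5 against -1.38 in lane 7 in IM. Among IM libraries, summed alveolar type 2 and airway epithelial markers were lowest where Hp was lowest (IM661, 228 CPM). They were highest where Hp was highest (IM659, 2375 CPM). Among NCM libraries Hp did not follow this sum, which was lowest in NCM648 (349 CPM) and highest in NCM661 (2817 CPM). The part of these markers in the Hp values was not tested.

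S100a4 (chr3:90603770-90606045) and S100a6 (chr3:90612894-90614414), neighbours on the plus strand 6848 bases apart, encode small calcium-binding proteins found in many motile and growing cells. S100a6 had 14.7, 10.7 and 32.5 CPM in the IM deleted libraries, and 43.4, 36.8 and 59.4 CPM in the IM control libraries. It had 27.9, 7.64 and 11.8 CPM in the NCM deleted libraries, and 25.1, 55.9 and 59.3 CPM in the NCM control libraries. IM deleted libraries lay below all IM control libraries, while in NCM the groups overlapped through NCM649 and NCM648. The change between genotypes was -1.27 ± 0.57 in IM (adjusted p = 0.472 by edgeR's quasi-likelihood test) and -1.57 ± 0.58 in NCM (adjusted p = 0.189). Within lanes it was -2.08 and -0.97 in IM and -2.83 and -0.45 in NCM, below 0 in each.

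S100a4 had 16.1, 12.4 and 37.5 CPM in the IM deleted libraries, and 34.7, 35.1 and 73.6 CPM in the IM control libraries. It had 163, 28.4 and 9.32 CPM in the NCM deleted libraries, and 66.5, 80.7 and 65.9 CPM in the NCM control libraries. NCM649 was the highest of all 12 libraries, and NCM661 the lowest. The change between genotypes was -1.12 ± 0.75 in IM (adjusted p = 0.757), and -2.00 and -0.49 within lanes. In NCM it was -0.09 ± 0.74 (adjusted p = 0.969), but 0.074 with RLE size factors and -1.92 without NCM649, and within lanes -1.35 and -0.74. Mean CPM in lane 8 went the other way, with 85.9 in deleted and 66.5 in control libraries. In GENCODE M21, 302 of the exon bases of S100a4 (51.7%) also belong to Gm42674, a gene on the same strand, so its count is uncertain where the counting knew both genes.

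Between the cell types neither passed. S100a6 differed by 0.29 in deleted libraries (adjusted p = 0.874) and by -0.01 ± 0.56 in control libraries (adjusted p = 0.999), where the value was 0.079 with RLE size factors. S100a4 differed by -1.60 ± 0.76 in deleted libraries (adjusted p = 0.336), where it passed without NCM661 (log2 -2.12, adjusted p = 0.0425) and was at 0.23 without NCM649, and by -0.57 ± 0.74 in control libraries (adjusted p = 0.778).

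Counted together, 0 of 9 members passed in IM deleted against IM control, where 0.288% of all genes tested passed (0.239% higher and 0.0491% lower). By unadjusted p under 0.05 the count was 3 (Lyz1, Lyz2 and S100a6), against 9.84% of all genes, and by DESeq2 it was 0. These 3 were also the members whose groups did not overlap, all lower, where 29.6% of all genes had no overlap (16.2% higher and 13.4% lower). In NCM deleted against NCM control, 0 of 9 passed, against 0.421% of all genes (0.0842% higher and 0.337% lower). By unadjusted p the count was 4 (Lyz1, Lyz2, Plac8 and S100a6), against 16.1% of all genes, and by DESeq2 it was 0. The members without overlap were Lyz1, Lyz2 and Plac8, all lower, against 17.3% of all genes (5.9% higher and 11.4% lower). The median log2 change of the 9 members was -0.44 in IM, with 6 of 9 below 0 and a median of 0.07 over all genes, and -0.83 in NCM, with 7 of 9 below 0 and a median of -0.10 over all genes. The IM median was 0.063 without IM661, -0.036 without IM659 and -1.25 with the non-exonic share as a covariate. With RLE size factors the NCM medians were -0.68 for the members and 0.04 for all genes.

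The test of a difference between the deletion effects of the cell types passed for 0 of 9 members and for 0% of all 14254 genes by edgeR, with 1271 genes at unadjusted p under 0.05 and 112 by DESeq2, and for the members the count was 1 at unadjusted p (Plac8) and 0 by DESeq2. Between the cell types, 4 of 9 members passed in deleted libraries (F13a1, Lyz1 and Lyz2 higher, Plac8 lower), against 4.57% of all genes (3.22% higher and 1.35% lower). In control libraries 3 of 9 passed (Lyz1 and Lyz2 higher, Plac8 lower), against 7.48% of all genes (2.81% higher and 4.67% lower). There the non-exonic share also separated the cell types, at 38.5 to 44.2% in IM and 58.1 to 66.8% in NCM. With this share as a covariate 1 of 9 passed, and over all genes 15 were higher and 13 lower, against 401 and 665 without it. The median log2 change of the members was -1.10 in deleted and -0.57 in control libraries, against 0.14 and 0.06 over all genes. These comparisons share libraries with the deletion comparisons. The members without overlap were 6 of 9 in deleted libraries (3 higher, 3 lower), against 22.2% of all genes (16% higher and 6.25% lower). They were 4 of 9 in control libraries (3 higher, 1 lower), against 35.8% (18.6% higher and 17.2% lower).

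**Figure D3:**
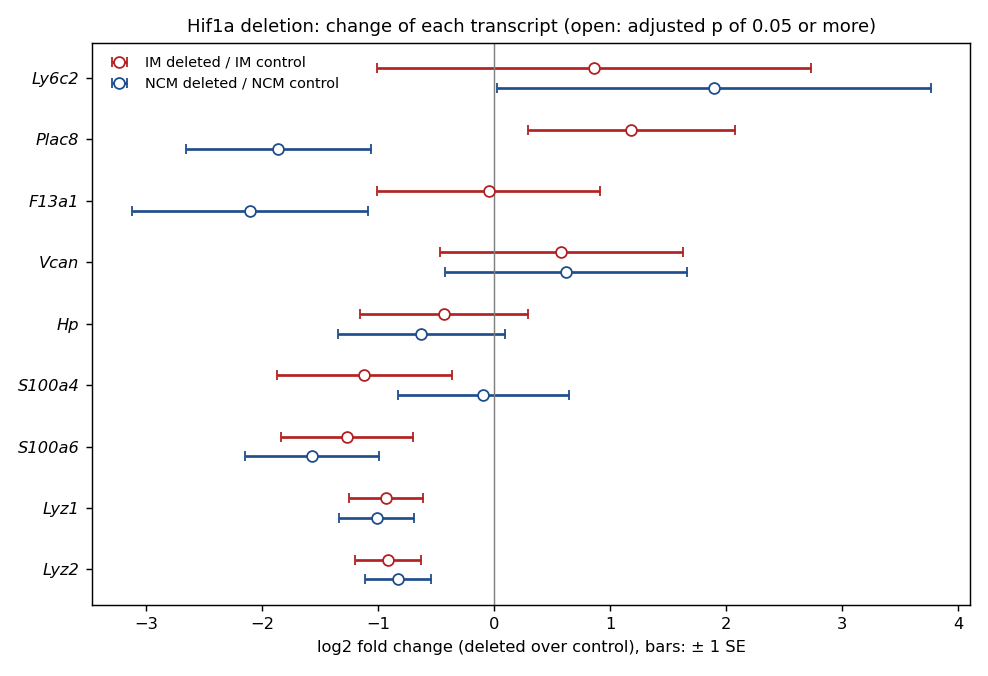
Log2 fold change of each transcript for deleted over control in IM and in NCM, with bars of 1 SE from the fit over 12 libraries; all symbols are open because no adjusted p was under 0.05. Lyz1 and Lyz2 lie near -1 in both cell types with the shortest bars, and Ly6c2 has the longest.

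**Figure D4:**
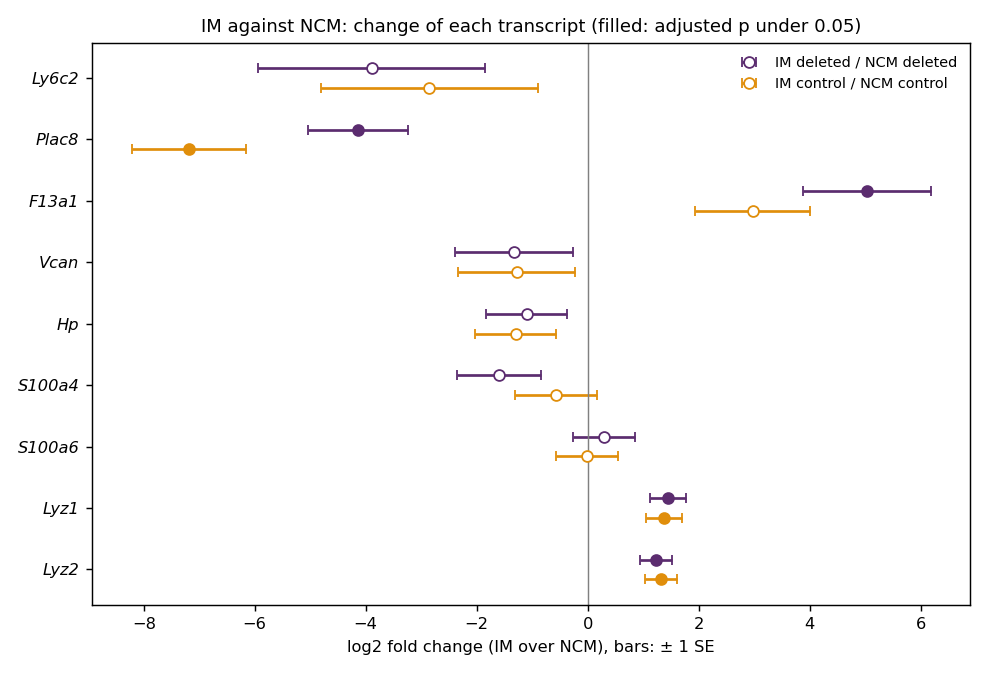
Log2 fold change of each transcript for IM over NCM, in deleted and in control libraries, with bars of 1 SE; filled symbols have an adjusted p under 0.05. Plac8 lies at -4.14 and -7.19, both lysozymes lie between 1.24 and 1.45, and F13a1 is filled in deleted libraries only.

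How much a single library carried differed by member. Leaving out each of the 12 libraries in turn kept the deletion change of Lyz2 between -1.09 and -0.84 in IM and between -1.04 and -0.56 in NCM, and that of Lyz1 between -1.17 and -0.79 in IM and between -1.21 and -0.56 in NCM. That of Vcan in NCM ran between -2.30 and 1.17, that of S100a4 in NCM between -1.92 and 0.43, and that of Ly6c2 in NCM between -0.59 and 2.41. Among the members named so far in this paragraph, the lysozymes were the most deeply counted and had the narrow ranges. Depth and range did not go together in every member. Hp, with fewer counts than the lysozymes, ran between -0.86 and -0.47 in NCM. F13a1, with more counts than Lyz1 in IM, ran between -0.35 and 0.28 there. The part of depth in these ranges was not tested.

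**Figure D5:**
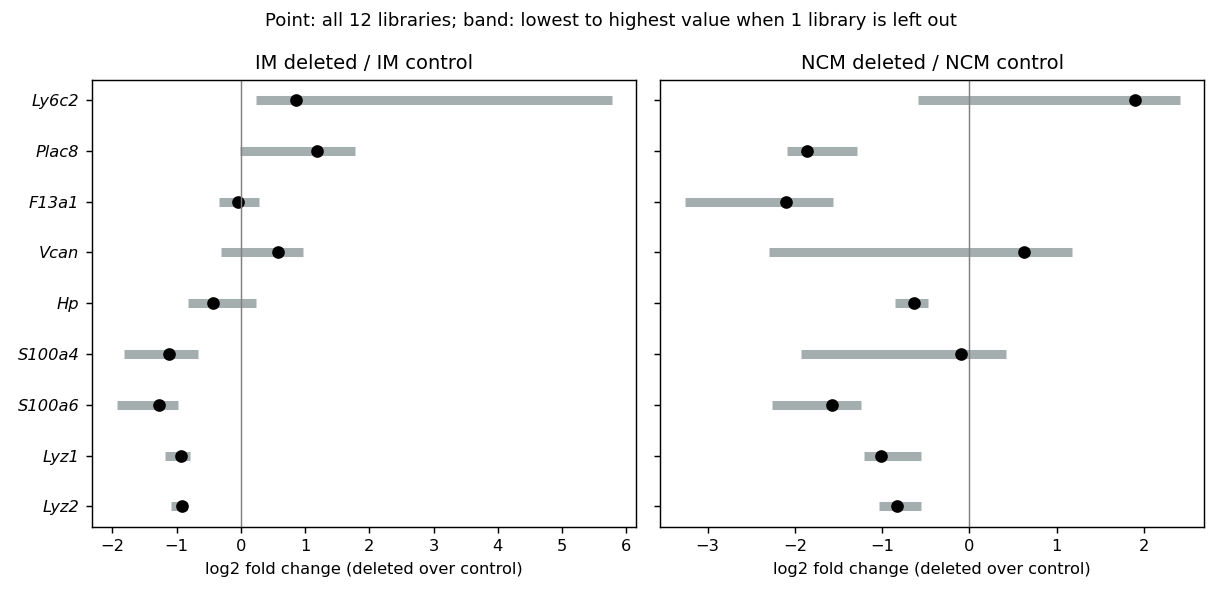
Log2 fold change for deleted over control per transcript in IM (left) and NCM (right), with the point from all 12 libraries and the band from the lowest to the highest value when 1 library is left out. The lysozyme bands stay below 0 in both panels, while the Ly6c2, Vcan and S100a4 bands in NCM cross 0.

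Among 24 further classical monocyte genes, 0 passed in IM deleted against IM control by edgeR, with 4 at unadjusted p under 0.05, against 9.84% of all genes, and 0 by DESeq2; 18 of 24 lay below 0 with a median of -0.38. In NCM deleted against NCM control, 1 of 24 fell and 20 lay below 0, with a median of -0.93. There 10 of 24 were at unadjusted p under 0.05, against 16.1% of all genes, and DESeq2 called 1 higher and 5 lower. The gene that fell by edgeR was Ccl9, which encodes a chemokine of myeloid cells, at 51.2 ± 16.9 CPM in NCM deleted and 161 ± 58.0 CPM in NCM control libraries (log2 -1.66 ± 0.30, adjusted p = 0.0325). Marker lists of other cells lay to one side in the same comparison. All 19 nonclassical markers lay below 0 and 1 of them fell, with a median of -0.94 and summed levels of 5465 to 10318 CPM in NCM deleted and 11698 to 18844 CPM in NCM control libraries. All 12 endothelial markers lay above 0, with a median of 1.82 and summed levels of 4943 to 11910 CPM in NCM deleted and 994 to 3795 CPM in NCM control libraries. Their part in the member values was not tested.

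Between the cell types the further genes went both ways. In deleted libraries 4 of 24 rose and 3 fell, led by Gsr, encoding glutathione reductase (log2 -2.56, adjusted p = 0.000309), Ccl9 (log2 2.39, adjusted p = 0.000323), Cd14, encoding a co-receptor for lipopolysaccharide (log2 3.05, adjusted p = 0.000685), and Fcgr1, encoding a high-affinity Fc receptor (log2 5.01, adjusted p = 0.00216). In control libraries 3 rose and 5 fell, led by Gsr (log2 -3.17 ± 0.34, adjusted p = 0.000116), Ifitm3, encoding an antiviral membrane protein (log2 -1.83, adjusted p = 0.00395), Clec4e, encoding the lectin receptor Mincle (log2 -2.81, adjusted p = 0.00471), and Ifitm6 (log2 -4.18, adjusted p = 0.00472). Ccr2 and Ly6c1 passed in no comparison. Ccr2 averaged 80.8 ± 39.2 CPM in IM deleted and 154 ± 35.1 CPM in IM control libraries, and 22.8 ± 28.5 CPM in NCM deleted and 79.7 ± 58.1 CPM in NCM control libraries. Ly6c1, the copy of Ly6c2, averaged 33.4 CPM in IM deleted, 38.7 CPM in IM control, 71.0 CPM in NCM deleted and 41.8 CPM in NCM control libraries.

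The genes whose log2 CPM followed a member most closely over the 12 libraries differed from member to member. They are the highest of 6068 candidates, so a high r follows from the choice, and the libraries share cell type and depth. F13a1 was most like Pf4 (r = 0.97), which encodes platelet factor 4, and Ccl2 (r = 0.95), which encodes a chemokine that attracts monocytes. Plac8 was most like Gcnt2 (r = 0.97) and Cd97 (r = 0.96), Lyz2 like Ctsc and Ccl9 (both r = 0.96), and Lyz1 like Dbi (r = 0.96) and Ccl6 (r = 0.95). S100a6 was most like Rpl8 (r = 0.95) and Rpl17 (r = 0.94), which encode ribosomal proteins, and S100a4 like Slmo2 (r = 0.94) and Plbd1 (r = 0.93). Hp was most like Cd36 (r = 0.87) and Megf9 (r = 0.86), Vcan like Sik2 (r = 0.87) and Vps53 (r = 0.84), and Ly6c2 like Mob1b (r = 0.89) and Nol10 (r = 0.87).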

How the data were processed

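RNA was measured in 12 libraries of sorted mouse lung cells, 3 per group, which the labels' protocols describe as made with a low-input kit for total RNA that keeps the strand. For each library the authors deposited a file of raw counts per gene, neither normalized nor filtered, with 26608 gene rows and 5 summary rows. The summary rows held 45.0 to 74.1% of reads and were left out of library sizes. The submitters' processing notes name the build GRCm38 (mm10) and the tools HTSeq 0.6.0, TopHat2 2.1.1 and cutadapt 1.12. Reads with several alignments, 4.44 to 9.02% of reads, stood in a summary row and not in the gene counts. Not given in the sources used here are the tools' options, the annotation and whether strand was used.

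Genes were kept by filterByExpr of edgeR 4.0.16 with a minimum count of 10, and all 12 libraries entered 1 robust quasi-likelihood fit with 4 group means and TMM factors (R 4.3.3). The SE of a log2 change is its size divided by the square root of its F statistic. Titles mark the monocyte libraries as RM and the tissue label gives them as nonclassical. Lanes were read from the names of the deposited files. Correlations and changes within lanes used log2 of CPM plus 0.5. In sign such a change can differ from mean CPM, as for S100a4 in lane 8, Vcan in lane 7 and Hp in lane 5. The alternatives were RLE size factors, no filter, DESeq2 1.42.0, the non-exonic share or the lane as a covariate, only the groups compared, the replicate number as a block, and each library left out in turn. The fit was also run on simulated counts with the same spread for all genes. That run cannot show how the fit handles members with a wide spread between libraries. Positions and promoters are from RefSeq GRCm38.p6, and exon lengths and coding sequences from GENCODE M21; figures used Python 3.11.15 with matplotlib 3.10.9.

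The members and gene lists were chosen with earlier results of these data known. All 9 members are named in every comparison. Of 26 further classical monocyte genes, 24 were in the files under that symbol; Ccr2 and Ly6c1 are always named, and otherwise at most 4 genes per comparison that passed, in order of p. For likeness, the 2 genes with the highest r and a mean log2 CPM of at least 4 are named, leaving out systematic names. Some genes of these lists are not reported here. S100a8, S100a9, Csf3r, Pf4 and Ppbp were singled out of marker lists after their values were seen.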

Additional observations from a re-analysis of the deposited data

How the results depend on the processing

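Over 801 alternative values of the 45 pairs of a member and a comparison, 700 kept direction and side of the threshold, 26 lost a call, 5 gained one and 70 turned in sign; 23 pairs never turned. The lysozymes kept their sign in every alternative of the deletion and cell-type comparisons. In IM deleted against IM control 2 members passed with only these groups in the fit. That fit called 549 genes higher and 401 lower of 13566. The number of members passing in this comparison was 0 to 1 with a library left out. In NCM deleted against NCM control it was 1 with the non-exonic covariate, where 80 of 14254 genes were higher and 271 lower. With any library left out it was 0. In IM control against NCM control it was 1 with that covariate and 1 to 3 with a library left out, the lowest without NCM648. In IM deleted against NCM deleted it was 1 with only these groups and 1 to 4 with a library left out, with 1 without IM649 or IM661 and 2 without IM659. Over all genes, DESeq2 called 284 higher and 145 lower in the IM deletion comparison, and in NCM 675 higher and 405 lower, against 12 and 48 by edgeR with TMM and 28 and 31 with RLE factors.

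Same-numbered libraries of the 2 cell types did not deviate together (r between -0.067 and 0.10 over 5 numbers, so they were not taken as pairs), and deleted and control libraries share no number. With the replicate block, 0 members passed in the difference of effects, 3 in IM control against NCM control and 3 in IM deleted against NCM deleted, where the adjusted p of F13a1 was 0.165. Differences of effects turned with the block for Lyz1 (-0.27), Vcan (0.62) and Hp (-0.75), as did S100a6 in IM control against NCM control (0.049).

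Other turned values follow, all on the log2 scale, and the cause was not tested. With the non-exonic covariate, the IM deletion change was -3.38 for Ly6c2, -0.62 for Plac8 and -2.43 for Vcan, the NCM deletion change -0.057 for Ly6c2 and -0.63 for Vcan, the control cell-type change 0.00062 for Ly6c2, 0.93 for Vcan and 1.04 for S100a4, and the Lyz1 difference -0.17. F13a1 in IM was 0.12 with lane as a covariate. S100a4 in NCM was 0.074 with RLE factors, 0.031 with no filter, 0.075 with DESeq2 and 0.040 with only 2 groups. S100a6 between control cell types was 0.079 with RLE factors, 0.059 with no filter, 0.079 with DESeq2 and 0.0075 with only 2 groups. The Lyz1 difference was -0.076 with RLE factors, -0.088 with no filter and -0.076 with DESeq2.

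With a library left out, ranges that crossed 0 in IM deleted against IM control were -0.018 to 1.77 for Plac8, -0.35 to 0.28 for F13a1, -0.31 to 0.96 for Vcan and -0.83 to 0.23 for Hp. In NCM deleted against NCM control they were -0.59 to 2.41 for Ly6c2, -2.30 to 1.17 for Vcan and -1.92 to 0.43 for S100a4. In the difference they were -1.78 to 3.88 for Ly6c2, -0.93 to 2.84 for Vcan, -1.84 to 0.77 for S100a4, -0.48 to 0.96 for S100a6, -0.38 to 0.27 for Lyz1, -0.36 to 0.081 for Lyz2 and -0.20 to 0.75 for Hp. Between cell types they were -0.31 to 0.21 for S100a6 in control, and in deleted libraries -2.21 to 1.58 for Vcan, -2.35 to 0.23 for S100a4 and -0.42 to 0.98 for S100a6.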
